A study of Mus musculus with 2 samples.

Results

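The genes described here encode the proteins that sense a DNA double-strand break and mark the chromatin around it. They are Atm, H2afx (now also called H2ax), Mdc1, Trp53bp1, Nbn, Mre11a (also called Mre11), Rad50, Rnf8 and Paxip1. They were taken by name and by no threshold on their values, although earlier results of these data were known. Every probe that the array files name for one of these 9 genes was taken. This gave 17 of the 41174 probes on the array and covered 8 genes. For Mdc1, none of the probes analysed here carried the gene's name, a synonym or its RefSeq accession, so it has no value below. Of the 17 probes, 16 were measured, which means well above background in each RNA on each array, as were 25810 probes in all, for 17577 gene names.

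The study compared messenger RNA of primary splenic B cells of C57/BL6 mice transduced with a miR-181b retrovirus, which also encodes green fluorescent protein (GFP), with that of B cells transduced with a control GFP retrovirus; miR-181b is a microRNA. Cells of both groups were isolated by removing CD43-bearing cells and were cultured with 25 µg/ml lipopolysaccharide and 10 ng/ml interleukin-4, which make B cells divide and switch antibody class. Virus was applied for 20 h with polybrene (8 µg/ml) and GFP-positive cells were sorted at day 2. The promoter of the vectors and the number, age and sex of the mice are not given in the sources used here. The labels state 1 RNA sample per vector. Both samples were hybridised together on 2 arrays with exchanged dyes, so that the miR-181b RNA was in Cy5 on array 1 and in Cy3 on array 2. The arrays are technical repeats, no test between the conditions was possible, and no p-value between them is given. Each log2 ratio below is miR-181b over control, and a mean carries the distance of either array from it as technical spread (±). This distance holds noise and any dye effect of the probe, which cannot be told apart with 1 array per dye orientation. It is therefore no standard error of the mean.

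A double-strand break is first bound by the MRN complex of Mre11, Rad50 and Nbn, which recruits and activates the kinase Atm. Atm phosphorylates the histone variant H2AX, Mdc1 binds the phosphorylated form, and Mdc1 in turn recruits Rnf8, a ubiquitin ligase whose marks lead to the binding of 53BP1 (the product of Trp53bp1). Paxip1 encodes PTIP, a partner of 53BP1. In activated B cells these factors act on the breaks made during antibody class switching, where they favour the joining of distant switch regions. Atm has been described as a target of miR-181 family members in human cells.

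The sequences below show the microRNA that the miR-181b virus is named for, and some of the probes of the sensing complex and its kinase. The miR-181a sequence is shown for comparison only. A microRNA pairs with its targets mainly through its seed, bases 2 to 8, shown in capitals. The mature sequences are those of RefSeq (GRCm38.p6). Of the family members listed there, miR-181b-5p is made from chr1:137966650-137966673 and chr2:38853845-38853868, both on the plus strand, and miR-181a-5p, which has the same seed, from chr1:137966468-137966490 and chr2:38852741-38852763, also on the plus strand. The remaining lines are the probes of the array, each 60 bases long, for Atm, Rad50, Nbn and Mre11a as the files give them.
mmu-miR-181b-5p: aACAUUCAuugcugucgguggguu
mmu-miR-181a-5p: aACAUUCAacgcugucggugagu
Atm A_52_P369581: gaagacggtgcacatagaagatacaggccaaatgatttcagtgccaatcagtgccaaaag
Rad50 A_51_P367220: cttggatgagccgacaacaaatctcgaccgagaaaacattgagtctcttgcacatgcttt
Nbn A_51_P309328: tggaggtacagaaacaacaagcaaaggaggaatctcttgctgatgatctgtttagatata
Mre11a A_51_P446678: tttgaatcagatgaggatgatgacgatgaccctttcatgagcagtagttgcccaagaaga

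The longest run that a member probe shared with a probe of another member, or with another probe of its own gene, was 7 to 10 bases, so the probes carry no long stretch in common. The complement of the seed, TGAATGT, searched on the strand the probes are written in, was in 0 of the 17 member probes and in 0.954% of all 41174 probes. The shorter GAATGT, which TGAATGT contains, was in 1 member probe (Paxip1 A_52_P546684) and in 2.56% of all probes. A match of these letters in a probe of 60 bases is a description of the probe and says nothing of the rest of the transcript.

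None of the 8 genes differed by as much as 1.5-fold between the miR-181b RNA and the control RNA. The mean ratios of their brightest measured probes ran from -0.33 for H2afx to 0.16 for Rad50, and their median was 0.003, from 0.04 for array 1 and 0.006 for array 2. Over all 17577 gene names the median was -0.005 (0.006 and -0.024). In bulk RNA, fewer cells of a type and less RNA per cell cannot be told apart. H2afx was the only member gene that was lower on both arrays, Rnf8 and Paxip1 were higher on both, and the other 5 (Atm, Trp53bp1, Nbn, Mre11a and Rad50) had opposite signs on the arrays.

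A gene was counted as past 1.5-fold when its mean reached that size with the same sign on both arrays. By this count 0 of 8 member genes were higher and 0 were lower, and among all measured genes 0.819% passed as higher and 0.512% as lower. With shares this small in the background, a count of 0 among 8 genes is near what all genes show. These shares rest on both arrays: by 1.5-fold on array 1 alone, 104 genes were higher and 278 lower, and on array 2 alone 884 and 258. By sign alone, 1 of 8 member genes was lower on both arrays and 2 were higher, beside 27.4% and 24.4% of all genes, and opposite signs were found for 5 of 8 member genes and for 8466 of the 17577. Of the 16 probes, 4 were lower on both arrays and 2 were higher on both, beside 26.2% and 23.8% of all probes. Past 1.5-fold there were 0 member probes in either direction, beside 0.713% of all probes for higher and 0.43% for lower. The plot of the member probes shows each of them on both arrays.

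**Figure D1:**
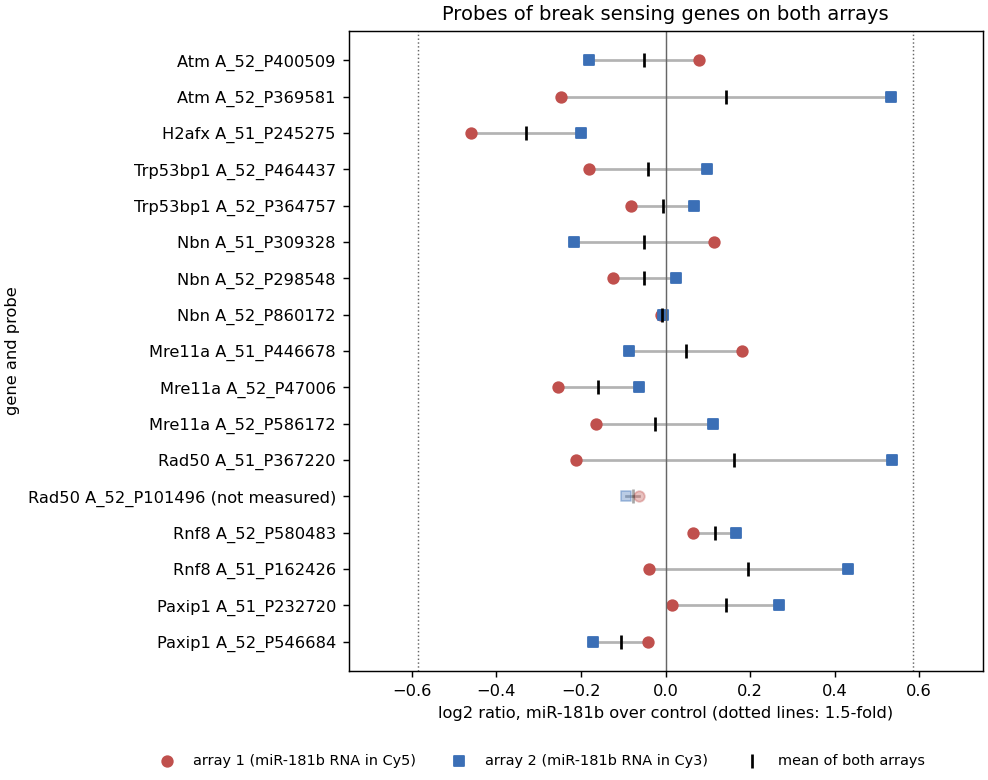
Log2 ratio, miR-181b over control, of each probe named for a break sensing gene, on array 1 (circles, miR-181b RNA in Cy5) and on array 2 (squares, miR-181b RNA in Cy3), with the mean of both as a tick and the 1.5-fold lines dotted. All 17 probes lie between the lines on both arrays. H2afx is the one with the lowest mean, and the Atm mRNA probe and Rad50 have the widest gap between the arrays.

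The gap between the arrays also describes these values, with any dye effect of a probe included. Array ratios of the 16 measured probes ran from -0.46 to 0.18 on array 1 and from -0.22 to 0.54 on array 2. The median distance of either array from the mean was 0.13 over these probes and 0.095 over all measured probes. For 10 of the 16 (62.5%) the mean was no larger than this distance, beside 50.0% of all probes. With 2 arrays this holds when their signs are opposite, so it restates the count of opposite signs. Of the 8 member genes, 5 had a mean no larger than the technical spread, those with opposite signs.

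Mre11a encodes the nuclease of the MRN complex. Its brightest probe, A_51_P446678, had log2 intensities of 11.90 in the miR-181b RNA and 11.72 in the control RNA on array 1, and of 11.78 and 11.87 on array 2. The ratio was thus 0.18 on the first array and -0.09 on the second, with a mean of 0.05 ± 0.13. The other measured probes did not give a common direction either. A_52_P586172 was at -0.16 and 0.11, and A_52_P47006, which the files name by a clone accession, was lower on both arrays, at -0.25 and -0.06 (mean -0.16 ± 0.10).

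Rad50 encodes the long coiled-coil ATPase that holds DNA ends together. Its measured probe, A_51_P367220, gave log2 intensities of 9.59 (miR-181b) and 9.80 (control) on array 1, and of 9.88 and 9.34 on array 2. The miR-181b RNA was the dimmer of the pair on array 1 and the brighter on array 2, so the ratios of -0.21 and 0.54 had a mean of 0.16 ± 0.37. This mean is smaller than its spread. The second Rad50 probe, A_52_P101496, a clone sequence, was not well above background for the control RNA on array 2 and was not counted; its ratios were -0.06 and -0.09.

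Nbn encodes the subunit of the complex that binds Atm. The brightest of its probes, A_51_P309328, had log2 intensities of 11.40 (miR-181b) and 11.29 (control) on array 1, and of 11.25 and 11.47 on array 2. The ratios of 0.12 and -0.22 gave a mean of -0.05 ± 0.17. Another mRNA probe, A_52_P298548, was at -0.12 and 0.02, and the clone probe A_52_P860172 was at -0.01 on both arrays. All 3 Nbn probes thus lay close to 0 on the mean. Across the MRN complex, the brightest probes of all 3 genes changed sign between the arrays, those of Mre11a and Nbn from higher to lower and that of Rad50 from lower to higher.

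Atm, the kinase that the complex activates, had a pair of probes that disagreed in sign. A_52_P369581, which carries the RefSeq mRNA accession of Atm, gave log2 intensities of 9.11 (miR-181b) and 9.36 (control) on array 1 and of 9.42 and 8.89 on array 2. Its ratios were -0.25 and 0.53, with a mean of 0.14 ± 0.39. The brighter probe, A_52_P400509, is named Atm in the files but described there as an unclassifiable clone, and its ratios ran the other way, at 0.08 and -0.18 (mean -0.05 ± 0.13). Because the gene value follows the brightest probe, Atm counts as -0.05 here, and the mean over both probes was also within the spread, at 0.05.

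The mRNA probe of Atm was printed 10 times on each array, which shows how exact a value is within an array. On array 1 the 10 spots lay between -0.30 and -0.16 (median -0.24), all of them below 0. On array 2 they lay between 0.46 and 0.58 (median 0.55), all of them above 0. The SD between spots was 0.050 and 0.043, while the distance of either array from the mean was 0.39. The measured probes printed at least 10 times numbered 160, and their medians were 0.053 and 0.046 for the SD between spots, and 0.077 for the distance of an array from the mean. Atm spots thus scattered as much as those of other repeated probes within an array, but the Atm arrays lay farther apart. Repeated spots of 1 array share its hybridisation and dyes and are not replicates.

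**Figure D2:**
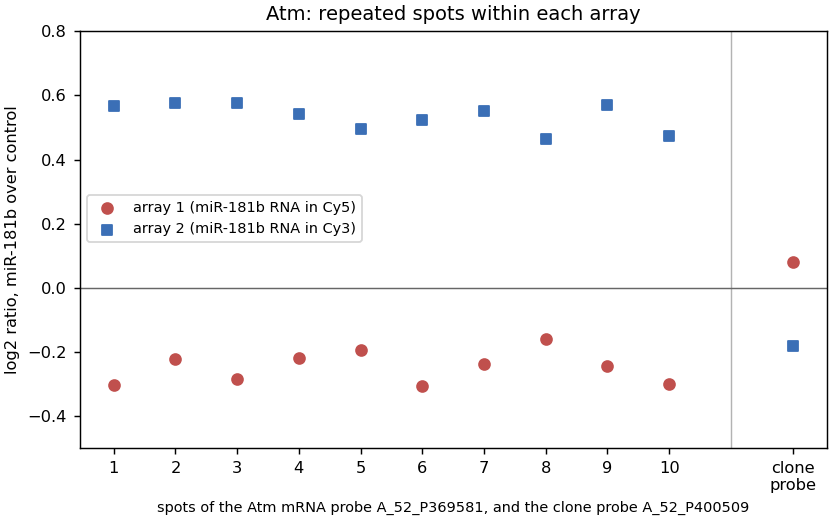
Log2 ratio, miR-181b over control, of the 10 spots of the Atm mRNA probe A_52_P369581 and of the Atm clone probe A_52_P400509, on array 1 (circles) and array 2 (squares). The spots of the mRNA probe lie between -0.30 and -0.16 on array 1 and between 0.46 and 0.58 on array 2, and the clone probe has the opposite order of the arrays.

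The median of genes that mark B cells was below 0 on array 1 and above 0 on array 2, as were the Atm mRNA probe and Rad50. This order was not particular to them. Both Trp53bp1 probes and the dimmer probes Rnf8 A_51_P162426, Nbn A_52_P298548 and Mre11a A_52_P586172 also had it. The brightest probes of Atm, Nbn and Mre11a had the reverse order. Of all 17577 genes, 8466 had opposite signs in either order, and the share with this order is not given. Marker medians of dendritic cells (3 measured, -0.038 and 0.275) and stromal cells (2 measured, -0.065 and 0.302) had the same signs. Those of the other cell types described below did not. The 6 B cell markers described here (Cd79a, Cd79b, Ms4a1, Pax5, Cd22 and Blk) were all measured, and their median ratio was -0.36 on array 1 and 0.84 on array 2, while the median of their means was 0.18. Of these, 5 had opposite signs and Cd79a was higher on both arrays, at 0.16 and 1.56. Among these markers, the probes of Cd79b and Ms4a1 were saturated on at least 1 array. Both arrays carried the same pair of RNA samples, so a gap between the arrays is technical. The part of the B cell markers in the mean values of Atm and Rad50 was not tested. Within an array, the scanner software's error model gave a p-value for each spot's ratio, here as deposited by the authors. It was under 0.01 for 0 of the 25 spots of measured member probes on array 1 and for 8 on array 2, of which 7 were Atm spots, and for 0 on both arrays. Among all 27250 measured spots it was under 0.01 for 1181 on array 1 and 3578 on array 2. These p-values cover 1 hybridisation and do not compare conditions.

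H2afx encodes the histone variant H2AX, which carries the break mark when phosphorylated. Its single probe, A_51_P245275, had log2 intensities of 13.87 in the miR-181b RNA and 14.33 in the control RNA on array 1, and of 13.96 and 14.16 on array 2. The miR-181b RNA was the dimmer on both arrays. The ratios were -0.46 and -0.20, with a mean of -0.33 ± 0.13, which is 1.26-fold lower. Of all gene names, 3.02% had a lower mean.

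The H2afx probe was in the brightest of 10 equal intensity classes of the 25810 measured probes, and it was not saturated. In that class (2581 probes) the median ratio was -0.001 on array 1 and 0.03 on array 2, and 21.9% of the probes were lower on both arrays. Probes whose ratio was at or below that of H2afx on both arrays made up 0.969% of the class and 0.697% (180) of all measured probes. The position of H2afx in the distribution is therefore toward its lower end, without reaching 1.5-fold. H2afx had 1 probe, so no other probe bears on this value.

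Many histone genes follow the cell cycle, and the lists of replication and mitosis genes were read beside H2afx. Over all genes, 27.4% were lower on both arrays and 24.4% were higher. Of 14 measured mitosis genes, 10 were lower on both arrays, 0 were higher and 4 had opposite signs, with a median of -0.21 (-0.27 and -0.29). Among them Bub1, a spindle checkpoint kinase, was at -0.68 on both arrays (1.60-fold lower). It was the 1 gene past 1.5-fold in the 8 lists of damage response, replication and mitosis genes. Of all measured genes, 0.512% passed as lower and 0.819% as higher. Cenpe, a kinetochore motor, was at -0.47 ± 0.19 and Aurkb, a chromosomal passenger kinase, at -0.46 ± 0.12. The replication list did not share this direction: of 15 measured genes, 6 were higher on both arrays, 2 were lower and 7 had opposite signs, with a median of 0.058 (0.15 and 0.053). There Fen1, a flap endonuclease, was at 0.45 ± 0.30, and the helicase subunits Mcm2 and Mcm5 were at 0.32 ± 0.16 and 0.20 ± 0.05. The part of either list in the H2afx value was not tested.

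Rnf8, the ubiquitin ligase, was higher on both arrays for its brighter probe. A_52_P580483 gave log2 intensities of 9.99 (miR-181b) and 9.92 (control) on array 1 and of 10.08 and 9.91 on array 2, hence ratios of 0.07 and 0.17 and a mean of 0.12 ± 0.05. This was the smallest distance between the arrays among the 8 brightest probes. The dimmer probe, A_51_P162426, was at -0.04 and 0.43, with a mean of 0.20 ± 0.24. Both Rnf8 means were above 0, though the second was smaller than its spread.

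Trp53bp1 encodes 53BP1, the reader of the ubiquitin mark that protects DNA ends from resection. Its brighter probe, A_52_P464437, had log2 intensities of 10.76 (miR-181b) and 10.94 (control) on array 1, and of 10.80 and 10.71 on array 2. The ratios were -0.18 and 0.10, with a mean of -0.04 ± 0.14. The other probe, A_52_P364757, gave like values, at -0.08 and 0.07 (mean -0.007 ± 0.075). Both 53BP1 probes were thus lower on array 1 and higher on array 2, with means near 0.

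Paxip1 encodes PTIP, which acts with 53BP1 and also with a histone methyltransferase complex. The brighter probe, A_51_P232720, had log2 intensities of 11.42 (miR-181b) and 11.41 (control) on array 1 and of 11.53 and 11.27 on array 2. Its ratio was close to 0 on the first array (0.02) and 0.27 on the second, with a mean of 0.14 ± 0.13. The dimmer probe, A_52_P546684, was lower on both arrays, at -0.04 and -0.17 (mean -0.11 ± 0.06). The probes of Paxip1 therefore disagreed in direction, and over both the mean was 0.018.

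The plot of both arrays against each other places the member probes among all measured probes. The band of probes at one value of array 1, between -0.96 and -0.92, holds 141 probes, of which 137 were saturated, and 0 member probes were saturated.

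**Figure D3:**
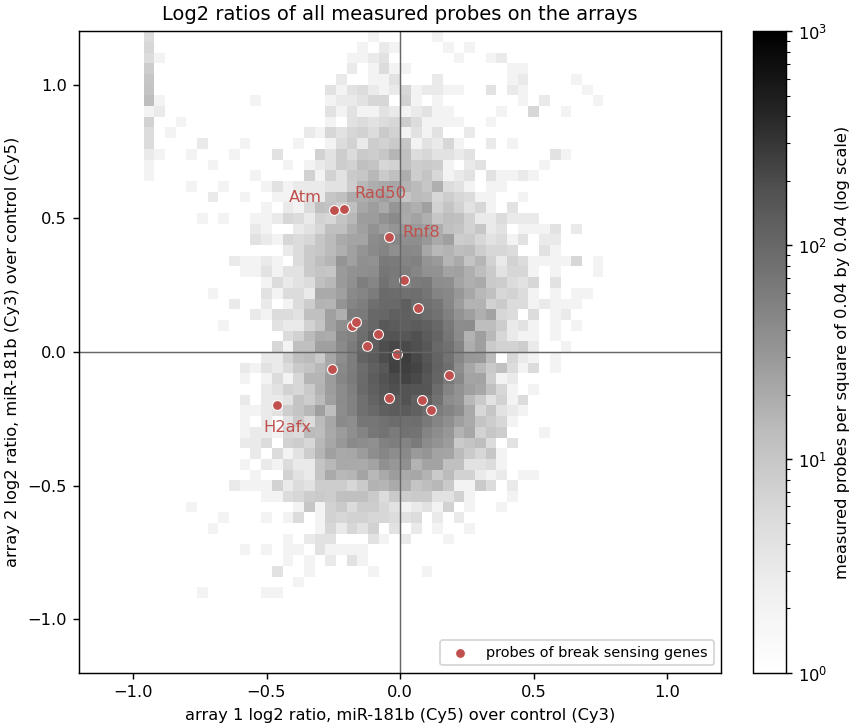
Log2 ratio, miR-181b over control, on array 1 (horizontal) against array 2 (vertical). Grey squares count all measured probes on a log scale (147 of the 25810 lie outside the axes) and red points are the 16 measured probes of break sensing genes. H2afx lies low on both axes, the Atm mRNA probe and Rad50 lie left of 0 and high on array 2, and the narrow grey band at the left holds mostly saturated probes.

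Genes that work with these sensors were described as lists, by the same count of signs. Their background is that of all genes, with 27.4% lower and 24.4% higher on both arrays. In the list of ubiquitin and chromatin steps that follow the H2AX mark, 15 of 16 genes were measured, 5 were lower on both arrays, 1 was higher and 9 had opposite signs, with a median of -0.095 (-0.072 and -0.15). Rnf169, a ubiquitin ligase that competes with 53BP1 for the mark, was at -0.17 ± 0.05, and the deubiquitinase gene Usp7 was at -0.17 ± 0.02. Kat5, an acetyltransferase that modifies Atm, was at 0.19 ± 0.16. No gene of this list passed 1.5-fold, beside 0.819% of all genes for higher and 0.512% for lower.

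The effectors and partners of 53BP1 (11 of 12 genes measured) had a median of 0.012 (-0.027 and 0.052), with 2 lower on both arrays, 2 higher and 7 opposite. Mad2l2, a subunit of the shieldin pathway that limits resection, was at -0.22 ± 0.08. The methyltransferase genes of the PTIP complexes were on either side of 0, with Kmt2c at -0.18 ± 0.15 and Kmt2d at 0.17 ± 0.10. Over the 5 measured probes of Kmt2c the means ran from -0.35 to 0.11.

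In the BRCA1-A complex, which reads ubiquitin chains at breaks, all 7 genes were measured, and 3 were lower on both arrays, 1 was higher and 3 had opposite signs. The median was -0.077 (-0.055 and -0.16). Uimc1, which encodes the ubiquitin-binding subunit Rap80, was at -0.157 ± 0.002, and the deubiquitinase gene Brcc3 was at -0.21 ± 0.14, with another probe at 0.081. Babam2, a scaffold subunit, was at 0.25 ± 0.23.

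The list of damage kinases and checkpoint genes (16 of 17 measured) held 4 genes that were higher on both arrays, 1 that was lower and 11 with opposite signs, with a median of 0.04 (0.005 and 0.15). Trp53, which encodes the p53 transcription factor that Atm acts on, was at 0.57 and 0.46, with a mean of 0.51 ± 0.05, or 1.43-fold higher. Another Trp53 probe was at 0.39. This was the highest mean in the 8 lists of damage response, replication and mitosis genes, and it stayed below 1.5-fold. Wee1, a kinase that holds cells before mitosis, was at 0.27 ± 0.21, and Etaa1, an activator of the kinase Atr, at -0.17 ± 0.08.

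For end resection and homologous recombination, all 14 genes were measured, and 2 were lower on both arrays, 2 were higher and 10 had opposite signs, with a median of -0.028 (-0.016 on each array). Here 2 subunits of the single-strand binding protein RPA lay apart, with Rpa2 at 0.27 ± 0.14 and Rpa3 at -0.29 ± 0.07, and the helicase gene Blm was at -0.11 ± 0.06. For nonhomologous end joining, all 12 genes were measured, and 2 were lower on both arrays, 3 were higher and 7 had opposite signs, with a median of 0.089 (0.046 and 0.15). The higher genes were Parp3 at 0.39 ± 0.18, with another probe at -0.038, Paxx at 0.33 ± 0.21, and Xrcc5, which encodes the Ku80 subunit that binds DNA ends, at 0.24 ± 0.14. Parp3 adds ADP-ribose near breaks and Paxx helps to assemble the joining complex. No gene of either list passed 1.5-fold, beside 0.819% of all genes for higher and 0.512% for lower.

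**Figure D4:**
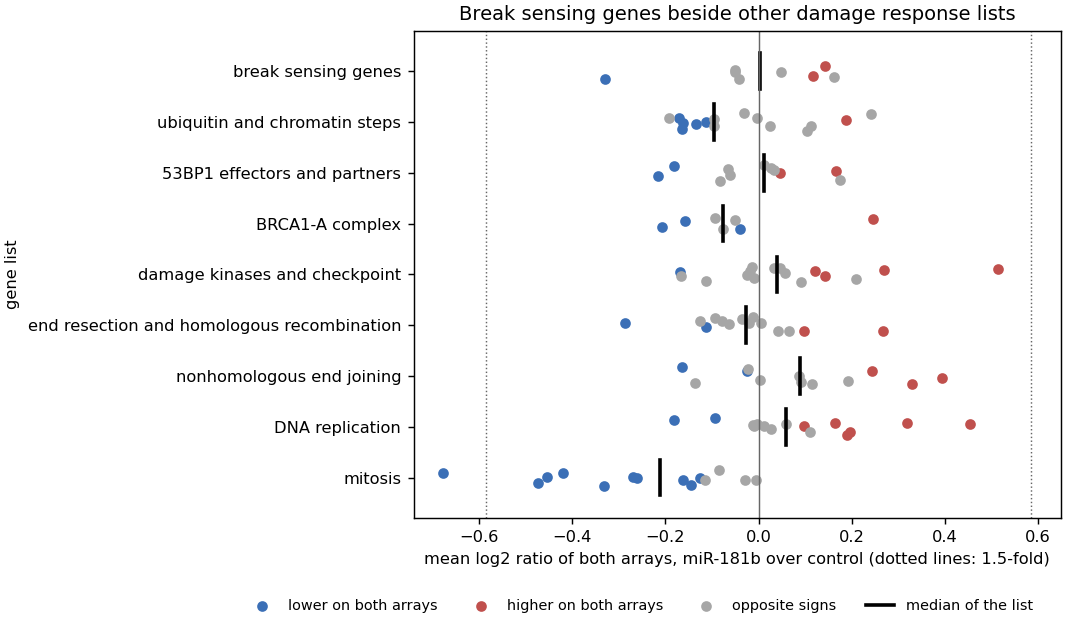
Mean log2 ratio of both arrays, miR-181b over control, of each measured gene (points) in the break sensing set and in the other lists, with the list's median as a black bar and 1.5-fold dotted. Points are coloured by whether the gene was lower on both arrays, higher on both or opposite. The medians of the damage response lists and of DNA replication lie between -0.095 and 0.089 and that of mitosis at -0.21.

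The normalisation within an array moved the brightest probe of each member gene in the same direction, by unequal amounts. Without the intensity-dependent (loess) correction, each array was centred on its median only, and the median of all genes was -0.21 in place of -0.005. The member genes ran from -0.74 (H2afx) to -0.11 (Rad50), and 6 of the 8 were lower on both arrays. The share of all genes lower on both arrays is not given for this setting, so that count has no background. Rad50, Rnf8 and Paxip1 stood 0.095, 0.031 and 0.003 above the median of all genes, and the other member genes stood below it. H2afx then passed 1.5-fold, at -0.55 and -0.92. Of the 17577 measured gene names, 908 passed as lower and 6 as higher in this setting, against 90 and 144 with loess. H2afx stood 0.53 below the median of all genes (a difference of -0.53), against -0.33 with loess. Under each of 6 normalisations run on both arrays, H2afx was lower on both arrays, and Mre11a and Rad50 had opposite signs under all of these. Rnf8 was higher on both arrays under 5 and lower under median centring, and Paxip1 was higher on both under 4, lower under median centring and of opposite signs under the scanner's log ratio. Atm, Trp53bp1 and Nbn had opposite signs under 5 and were lower on both arrays under median centring.

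**Figure D5:**
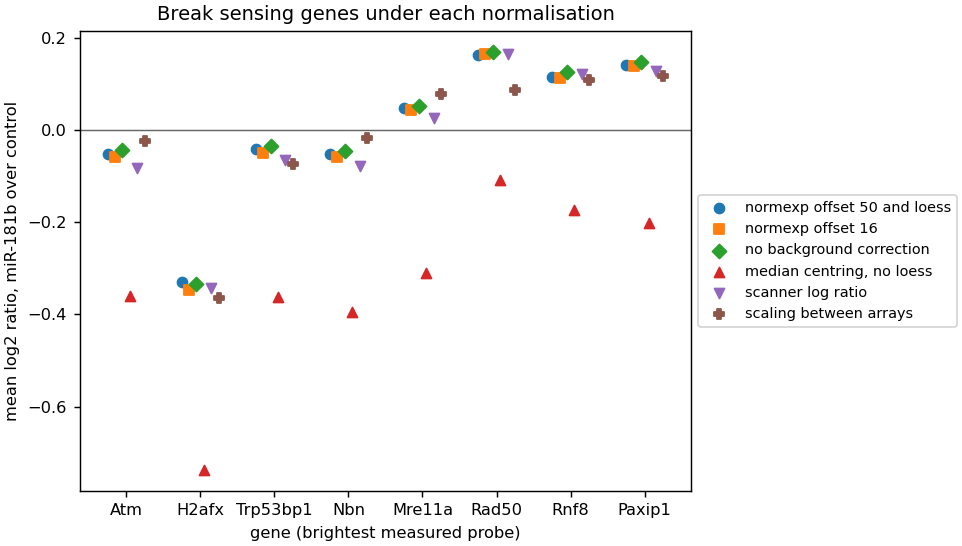
Mean log2 ratio of both arrays, miR-181b over control, of each break sensing gene (brightest measured probe) under 6 normalisations, each with its own symbol. Median centring without loess (triangles) lies lowest for every gene shown, and H2afx is at -0.33 or lower under each of the 6.

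Markers of other cell types were read in the same way. Of 8 T cell markers, all 8 were measured, with a median of -0.003 (0.009 and -0.050) and a range of means from -0.23 to 0.32. Of 6 macrophage or monocyte markers, all 6 were measured, with a median of 0.022 and a range from -0.49 to 0.27. Fewer markers were measured for natural killer cells (2 of 5), dendritic cells (3 of 5), stromal cells (2 of 5), granulocytes or mast cells (3 of 6) and erythroid cells (1 of 5). Their medians were 0.17, -0.027, 0.12, -0.13 and 0.39. Their part in the values of the member genes was not tested.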

How the data were processed

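The data are 2 two-colour whole mouse genome arrays of 1 pair of RNA samples with exchanged dyes. Per the labels, RNA integrity numbers were 9.7 to 9.8 and 2 µg was labelled. The authors' scanner files were made with Agilent Feature Extraction 9.1.3.1, per the file headers. For Cy3 and Cy5 they give the deposited mean intensity of a spot, uncorrected and linear, and the median intensity around it. They also hold the software's log10 ratio of Cy5 over Cy3 after its own background and dye correction, and its p-value within an array, per the file headers. The authors' deposited table of ratios was not used here, since its row identifiers matched no probe column.

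Of 45018 spots per array, 43379 were not controls. The share of spots well above background ranged from 64.7% to 67.7% over the channels, and the number of arrays limits the precision. Ratios were computed with limma 3.58.1 in R 4.3.3: normexp with an offset of 50, loess with control spots at weight 0, outlier spots left out (7 and 21), saturated spots kept, and the sign of array 2 turned. Levels per RNA were taken after loess and Aquantile. A gene's value is that of its brightest measured probe. Probes were named through RefSeq by accession (22951), symbol (6659) or synonym (3109), and the other 8455 kept the file's name. The steps were tested on simulated data. Named genes were all members and, of each list, the 3 with the largest mean ratio of 1 sign on both arrays; the markers, and the range ends of other lists, are given as groups. The result of 1 gene of the marker lists is not reported here, and its list was described without it. The members and lists were chosen with earlier results of these data known.

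Alternatives were normexp with an offset of 16, no background correction, median centring, the scanner's log ratio, scaling between arrays, each array alone, the mean of all probes, all probes, no saturated probes, and 2-fold on the mean with 1.5-fold on each array.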

Additional observations from a re-analysis of the deposited data

How the results depend on the processing

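The count of member genes past 1.5-fold was 0 in every alternative run except median centring without loess, where it was 1 (H2afx). Median centring took the median of all genes from -0.005 to -0.21, left some member probes near 0 (Trp53bp1 A_52_P364757 at -0.010 and Nbn A_52_P860172 at 0.017), and moved the median of the member genes from 0.003 to -0.33, the member genes lower on both arrays from 1 to 6 and those higher from 2 to 0, and the member probes lower on both arrays from 4 to 10 and those higher from 2 to 0. The scanner's log ratio gave 1 member gene and 1 member probe higher on both arrays. When a gene's measured probes were averaged, 3 member genes were lower on both arrays and 1 was higher. The shares of all genes and of all probes by sign are not given for these alternatives. These counts by sign therefore have no background. The median of the member genes was 0.031 with scaling between arrays, 0.006 to 0.04 on single arrays, and 0.082 with probes of RefSeq mRNA accessions alone, an alternative chosen after seeing the data. The cause of these differences was not tested. Among all genes, 144 were higher and 90 lower past 1.5-fold with loess, 6 and 908 with median centring, 226 and 203 with the scanner's log ratio, 104 and 278 on array 1 alone, 884 and 258 on array 2 alone, and 1 and 17 under the stricter rule of 2-fold on the mean together with 1.5-fold on each array. The alternative of the authors' table of ratios was not run, since its rows could not be matched to probes. No paired test was possible because there was 1 RNA sample per vector and both arrays carried this same RNA pair.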
